A study of Mus musculus with 13 samples.

Results

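The transcripts of 10 mouse genes of the NF-kB system were followed through mammary tumors and tumor-free mammary glands. They were taken by symbol from the 24421 rows of the count table, and all 10 were present in it. They comprise 4 subunits of the transcription factor (Nfkb1, Nfkb2, Rela and Relb), the inhibitor gene Nfkbia, 3 genes whose products act on ubiquitin or on cell death downstream of the TNF receptor (Tnfaip3, Tnip1 and Birc3), the adhesion molecule gene Icam1, and the kinase gene Ripk3. All 10 passed the filter on low counts, both over the 13 libraries and over the 11 tumors.

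All mice were females of the FVB/N-TgN strain of line 202Mul/J, carrying MMTV-HER2/neu, in which the promoter of the mouse mammary tumor virus drives a rat HER2/Neu transgene in breast epithelium. The genotype label of every sample, glands included, read wild type. Total RNA depleted of ribosomal RNA was sequenced from 2 glands of untreated mice, 3 primary untreated tumors, 3 primary tumors of mice drinking stavudine (STV, primary STV), 3 tumors that came back after 17-DMAG (recurrent DMAG) and 2 that came back after 17-DMAG with stavudine (recurrent DMAG+STV). Stavudine, a nucleoside inhibitor of reverse transcriptase, was dissolved at 1 mg/mL, either from 2 months of age or once a tumor had appeared, and the labels do not say which of these applied to a given tumor. The paper's supplement describes the primary STV tumors as arising in mice treated with stavudine. For the recurrent DMAG+STV tumors the start of stavudine was not stated. 17-DMAG, an inhibitor of the chaperone HSP90, was injected at 20 mg/kg, and recurrent tumors had first responded completely. By the paper's methods the injections went on during regrowth, up to the size at which mice were killed. Recurrence and continued exposure to 17-DMAG therefore cannot be told apart in these samples. The glands received neither drug. Ages at collection were not given in the sources used here, and the labels do not tie tumors to mice, so that p-values measure the spread between these samples.

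NF-kB dimers are held in the cytoplasm by IkB proteins such as the product of Nfkbia, or by the precursor parts of the Nfkb1 and Nfkb2 products. In the canonical branch, TNF or interleukin receptors activate the IkB kinase, IkB is degraded, and dimers holding the Rela product enter the nucleus. In the other branch, the Nfkb2 precursor is processed and acts with the Relb product. Nfkbia and Tnfaip3 are themselves induced by NF-kB and dampen the signal, and in the mammary gland the pathway is known from alveolar development and from infiltrating leukocytes.

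Promoter sequences were read for 8 of the 10 genes from RefSeq (GRCm38.p6); Nfkb1 and Relb were not matched. In the 250 bases before each annotated start, the NF-kB consensus, a degenerate motif of 10 letters, was searched on both strands. It matched in 4 of the 8 genes, Nfkb2, Nfkbia, Tnfaip3 and Tnip1, and in 4.46% of the 27025 genes with such windows. The windows of these 4 genes held 58.8% to 65.2% G and C, above the median of 52% over all genes, and of the 4015 genes within that range 5.5% held a match at their first listed start. It did not match in Rela, Birc3, Icam1 or Ripk3, which says only that these letters are not in that window. The stretches around the matches are shown for those 4 genes, which are grouped here only because the search matched in them. Each runs 5′ to 3′ on the strand of the gene, and capitals mark the matched bases.
Nfkbia: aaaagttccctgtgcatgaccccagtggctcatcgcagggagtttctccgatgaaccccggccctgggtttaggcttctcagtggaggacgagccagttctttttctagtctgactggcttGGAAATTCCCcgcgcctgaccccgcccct
Tnip1: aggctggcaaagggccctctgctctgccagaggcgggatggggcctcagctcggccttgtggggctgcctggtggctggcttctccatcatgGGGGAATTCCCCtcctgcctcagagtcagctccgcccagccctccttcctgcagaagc
Tnfaip3: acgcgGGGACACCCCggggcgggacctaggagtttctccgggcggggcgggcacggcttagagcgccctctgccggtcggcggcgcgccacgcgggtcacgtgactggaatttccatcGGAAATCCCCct
Nfkb2: cacGGGAATTCCCCccctcggggggccgaa

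The Nfkbia stretch is chr12:55492648-55492797, on the minus strand, and its single match lay 29 to 20 bases before the start. The Tnip1 stretch is chr11:54962941-54963090, also on the minus strand, where 4 matches, 2 per strand, overlapped between 58 and 47 bases before the start. The Tnfaip3 stretch, chr10:19015411-19015540 on the minus strand, held a match at 125 to 116 bases and another at 12 to 3 bases. These 3 stretches touched no exon of the GENCODE annotation. That of Tnfaip3, before its RefSeq start, still lies inside the gene as GENCODE draws it, chr10:19000910-19015657. The Nfkb2 stretch is chr19:46304695-46304724, on the plus strand, with 3 overlapping matches between 39 and 29 bases before the first listed start and another, not shown, at 11 to 2 bases. Its other 2 starts had 1 match each, at 236 to 227 and 225 to 216 bases. The stretch shown lies in exons that GENCODE gives to Nfkb2 and to AC114539.1.

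In the GENCODE annotation of GRCm38 the genes lie on 8 chromosomes, with the 5 that were called in tumors against glands placed as follows. They are Nfkbia at chr12:55489410-55492647 (minus strand), Birc3 at chr9:7848699-7873186 (minus strand), Icam1 at chr9:21015985-21028817 (plus strand), Ripk3 at chr14:55784995-55788865 (minus strand) and Tnip1 at chr11:54910785-54962917 (minus strand). Counts were made over exons, and levels below refer to whole genes.

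Library totals ran from 39921388 to 56887708 counts. Levels are given as counts per 1000000 (CPM), scaled to the library total times its TMM factor, a factor that corrects for a few genes taking much of a library. The TMM factor was 0.493 in gland 2 and 0.999 to 1.12 elsewhere, and milk protein transcripts summed to 537113 CPM in gland 2 against 21070 CPM in gland 1. As shares of the library counts, before TMM scaling, these were 26.5% and 2.37%. Gland 1 stood apart in leukocytes instead, with T cell markers at 98.8 CPM summed over 6 genes and B cell markers at 129 CPM over 5, against 6.96 and 2.32 CPM in gland 2. Luminal epithelial markers were detected in every library, with no gene of the 6 at 0. Among the tumors, recurrent DMAG replicate 1 stood apart with 5641 CPM of fibroblast and 576 CPM of macrophage markers, where the other 10 tumors had at most 1818 and 294 CPM. It also had the highest endothelial (283 CPM, with 155 in the next), neutrophil (14.1, with 8.21) and dendritic cell (27.7, with 25.6) markers. Its luminal (2966 CPM) and milk protein (19695 CPM) markers were the highest of the 11 tumors too. Recurrent DMAG+STV replicate 2 held the most skeletal muscle (1456 CPM) and basal epithelial (254 CPM) markers of the 11 tumors and the fewest luminal ones (1412 CPM, with 2226 CPM in the next).

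Compared per kilobase of exon, the tumors held most RNA of Rela and Nfkbia, at medians of 18.9 and 18.4 CPM per kb over the 11 tumors. These did not differ beyond their spread, with ranges of 14.0 to 23.0 and 13.1 to 29.7. Below them came Nfkb1 (7.83 CPM per kb), Nfkb2 (5.76), Tnip1 (5.10), Birc3 (3.52), Relb (2.07), Tnfaip3 (1.19), Icam1 (0.914) and Ripk3 (0.630). The single gap in this order lay between Nfkbia and Nfkb1, whose highest tumor had 9.87 CPM per kb, while every other pair of neighbours had overlapping ranges. In both glands Nfkbia led instead, with 42.7 and 51.2 CPM per kb against 17.9 and 15.8 for Rela. In the tumors Nfkbia exceeded Rela in 5 of 11.

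The genes differed in how much they varied among tumors. Rela and Nfkb1 were the steadiest, with coefficients of variation of 12.7% and 13.2%, below the median of 24.7% over all genes tested. Icam1 and Ripk3 were the most variable, at 70.5% and 60.6%, and their highest tumor had 7.75 and 7.41 times the level of their lowest. Relb (44.7%) and Tnfaip3 (34.4%) came next, followed by Nfkb2 (26.8%), Birc3 (24.3%), Nfkbia (23.1%) and Tnip1 (17.2%). Ripk3 rested on the fewest reads, 28 to 195 counts per tumor, and Icam1 on 84 to 612. Exons of Icam1 overlap Gm47079 over 11.7% of their bases, and those of Nfkb2 overlap AC114539.1 and Psd over 18.1%, and whether the counting used strand was not given in the sources used here.

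**Figure D1:**
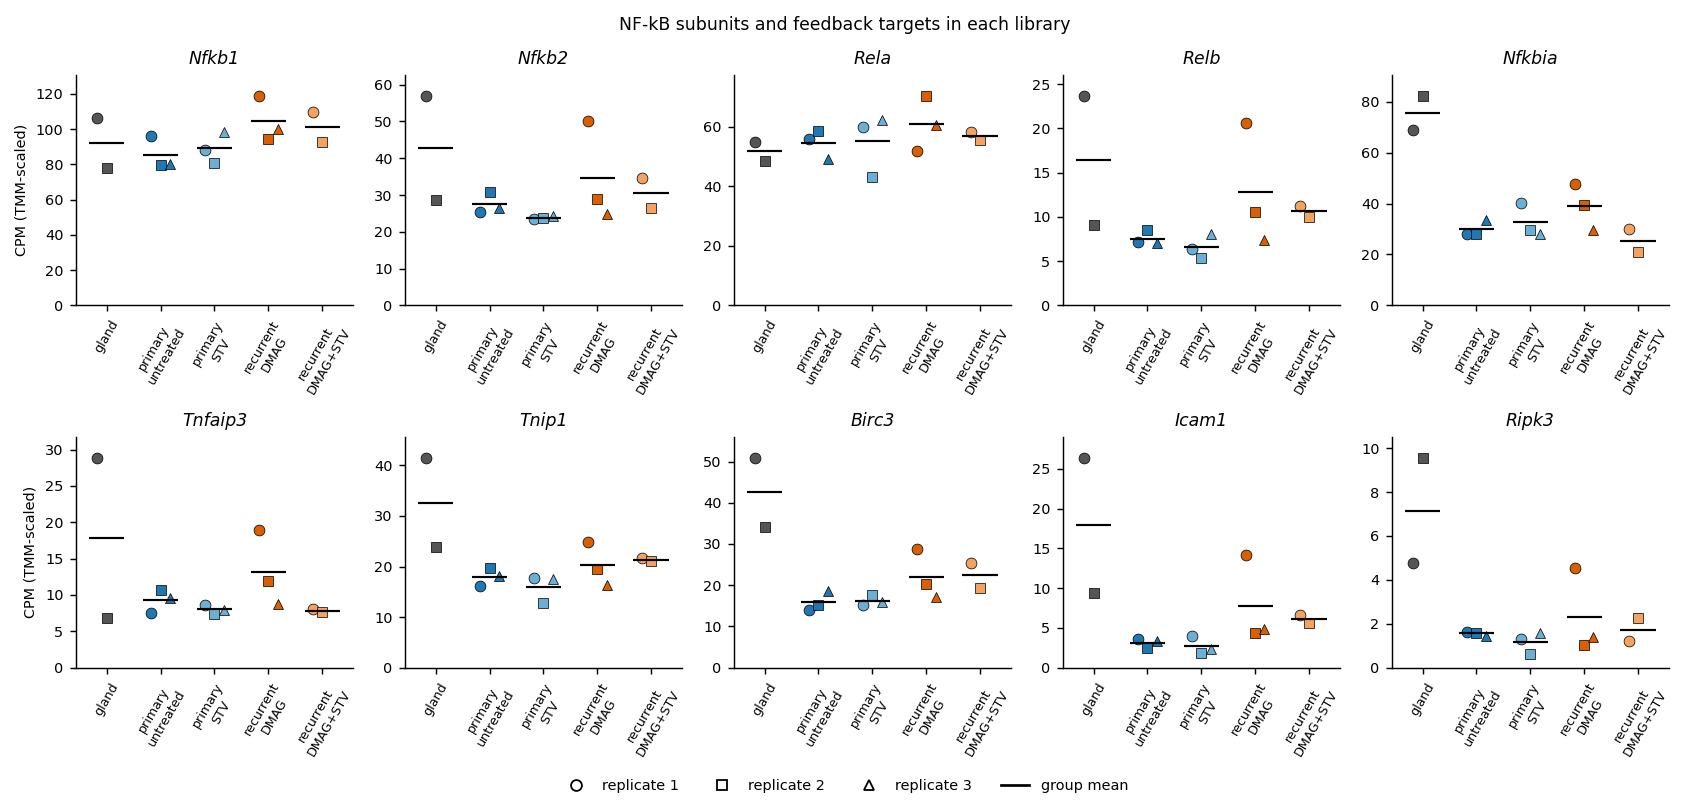
Level of each of the 10 genes in CPM (vertical axis, linear from 0) in the 13 libraries, by group, with a symbol per replicate and a bar at the group mean. Nfkbia, Birc3 and Ripk3 were higher in both glands than in every tumor, Icam1 was higher in the 5 recurrent than in the 6 primary tumors, and recurrent DMAG replicate 1 was the highest tumor for 9 of the 10 genes.

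The contrast of all tumors with the glands asks how the NF-kB genes of the tumors differ from those of the tissue of origin. The inhibitor gene Nfkbia, the ubiquitin ligase gene Birc3, Icam1, Ripk3 and Tnip1 passed the test as lower in tumors, by 1.74-fold for Tnip1 to 4.36-fold for Ripk3. No difference passed it for the subunits, which did not move alike. Relb (log2 fold change -0.85) and Nfkb2 (-0.57) also lay lower in tumors, Relb by about as much as Tnip1 (-0.80). Rela and Nfkb1 lay at 0.13 and 0.04. Of the 10 genes, edgeR called 5, all lower, where called means an adjusted p below 0.05. Over all 17135 genes tested, 10.4% were called in either direction and 8.81% were called as lower in tumors. At an unadjusted p below 0.05 stood 7 of the 10, against 29.6% of all genes.

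Nfkbia encodes IkB-alpha, which retains NF-kB in the cytoplasm. It had 68.8 and 82.4 CPM in the glands. In the tumors it had 27.9, 28.0 and 33.5 CPM (primary untreated), 40.2, 29.5 and 28.1 (primary STV), 47.8, 39.3 and 29.6 (recurrent DMAG), and 29.9 and 21.0 (recurrent DMAG+STV). Both glands were above every tumor, gland 2 by 1.72 times over the highest. The log2 fold change of tumors over glands was -1.27 (SE 0.19, edgeR quasi-likelihood adjusted p = 0.00356), 2.41-fold lower in tumors.

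Birc3 encodes cIAP2, a ubiquitin ligase that joins the TNF receptor complex and restrains cell death. Its glands stood at 50.9 and 34.2 CPM. Primary untreated tumors had 13.9, 15.1 and 18.6 CPM, primary STV tumors 15.1, 17.6 and 15.9, recurrent DMAG tumors 28.8, 20.3 and 17.2, and recurrent DMAG+STV tumors 25.4 and 19.3. Again no tumor reached a gland, although recurrent DMAG replicate 1 came near gland 2. The log2 fold change was -1.17 (SE 0.20, edgeR adjusted p = 0.00650).

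Ripk3 encodes the kinase that, once it has met RIPK1 or ZBP1, phosphorylates MLKL and starts necroptosis. It was low everywhere, with 4.75 and 9.56 CPM in the glands. The primary untreated tumors had 1.63, 1.59 and 1.44 CPM, the primary STV tumors 1.29, 0.609 and 1.58, the recurrent DMAG tumors 4.52, 1.05 and 1.41, and the recurrent DMAG+STV tumors 1.19 and 2.24. Both glands exceeded all tumors, gland 1 only narrowly above recurrent DMAG replicate 1. Its log2 fold change was -2.12 (SE 0.47, edgeR adjusted p = 0.0201). Of the 10 genes, Nfkbia, Birc3 and Ripk3 were the 3 whose glands and tumors did not overlap with the glands on top, a pattern held by 7.37% of all genes tested.

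Icam1 encodes the adhesion molecule that binds leukocyte integrins and is a classic target of NF-kB in endothelium. It had 26.4 and 9.38 CPM in the glands, and in all tumors but one it was below both. The exception, recurrent DMAG replicate 1 with 14.2 CPM, lay between the glands. The log2 fold change was -1.99 (SE 0.43, edgeR adjusted p = 0.0175). Tnip1, whose product ABIN1 brings A20 to its substrates, had 41.5 and 23.8 CPM in the glands and 12.8 to 24.9 CPM in tumors, with a log2 fold change of -0.80 (SE 0.21, edgeR adjusted p = 0.0362), given here because it was the fifth call and so beyond the 4 chosen by the naming rule.

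The remaining 5 genes did not pass. Tnfaip3 encodes A20, which removes ubiquitin chains from signaling adaptors, and had 28.9 CPM in gland 1 but 6.82 CPM in gland 2, below every tumor (7.42 to 18.9 CPM). Relb had 23.7 and 9.10 CPM in the glands and 5.31 to 20.6 CPM in tumors, and Nfkb2 57.1 and 28.8 CPM against 23.4 to 50.1 CPM. Their adjusted p-values in edgeR were 0.139, 0.143 and 0.174, and for each the glands overlapped the tumors. The log2 fold change of Tnfaip3 was -0.93 with both glands and 0.49 without gland 1. Nfkb1 had 106 and 77.7 CPM in the glands and 79.4 to 119 CPM in tumors, with a 95% interval of the log2 difference from -0.29 to 0.38. For Rela, at 55.0 and 48.7 CPM against 43.1 to 70.6 CPM, that interval ran from -0.21 to 0.48.

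**Figure D2:**
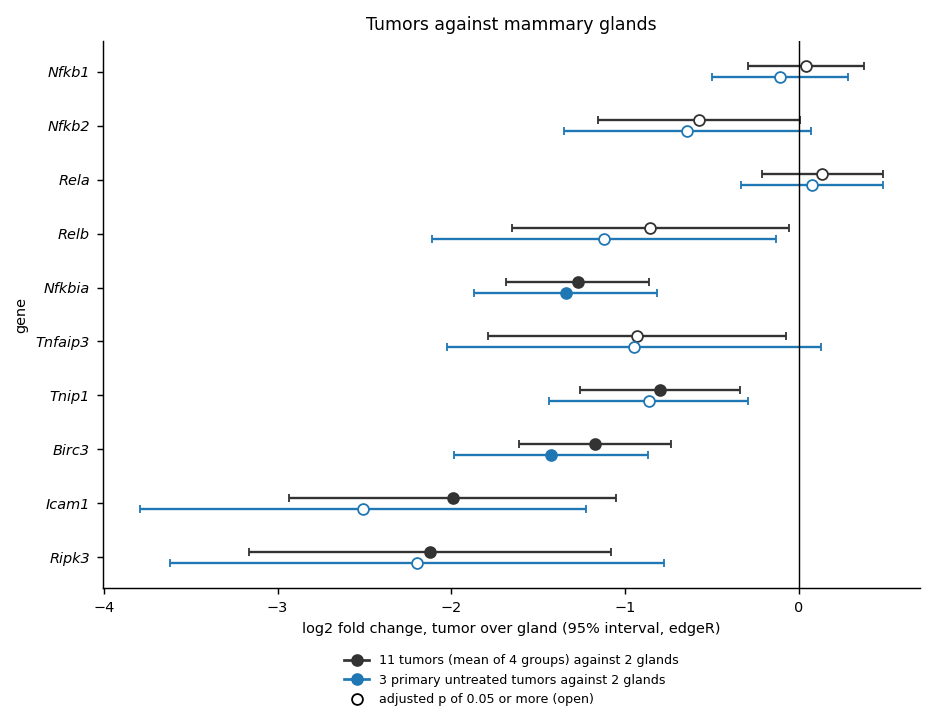
Log2 fold change of tumor over gland (horizontal axis) for each gene, with 95% intervals from edgeR, for all 11 tumors and for the 3 primary untreated tumors against the same 2 glands; filled points have an adjusted p below 0.05. Rela and Nfkb1 lie at 0.13 and 0.04 for all tumors, and Icam1 and Ripk3 lie farthest to the left, at -1.99 and -2.12.

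The 2 glands disagreed in ways that bear on these calls. Gland 1 exceeded gland 2 for 8 of the 10 genes, most for Tnfaip3 (4.24 times), Icam1 (2.82 times) and Relb (2.61 times), whereas Nfkbia and Ripk3 were higher in gland 2. The share of all genes with gland 1 above gland 2 was not computed. Without gland 1, 3 genes were called, Nfkbia, Birc3 and Ripk3, while Icam1 was no longer called (log2 fold change -1.02, adjusted p = 0.200), nor was Tnip1 (-0.30, adjusted p = 0.370). Without gland 2, 4 were called, Birc3, Icam1, Tnip1 and Tnfaip3, while Nfkbia had an adjusted p of 0.0591 and Ripk3 of 0.332. Birc3 alone was called with either gland left out. With library totals alone, without TMM factors, 8 of the 10 genes were still lower in tumors, but edgeR called 0 of them, with 4 at an unadjusted p below 0.05. That scaling moved the median log2 fold change of all genes from -0.02 to 0.37, while the median of the 10 genes was -0.89 with TMM and -0.77 without.

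Markers of other cells moved in the same contrast. In the tumors T cell markers summed to 2.49 to 8.08 CPM and B cell markers to 0.479 to 1.57 CPM, and all 6 T cell genes and all 3 testable B cell genes were called lower, with up to 3 of the 5 B cell genes at 0 in a tumor. The T cell sum was 98.8 CPM in gland 1 but 6.96 CPM in gland 2, within the tumor range. For B cell markers the glands had 129 and 2.32 CPM. Adipocyte markers summed to 783 and 656 CPM in the glands and to 5.31 to 89.3 CPM in tumors, with 6 of 6 called lower and 4 of 6 at 0 in primary STV replicate 3. Called lower were also 4 of 5 dendritic cell, 4 of 5 basal epithelial, 3 of 6 pan-leukocyte, 2 of 4 neutrophil, 2 of 6 endothelial, 2 of 6 luminal and 1 of 6 fibroblast genes. The median log2 fold change of the 6 luminal genes nonetheless lay above 0, at 0.56. Of the macrophage markers, 0 of 8 were called by edgeR. The part of these cells in the levels of the NF-kB genes was not tested, and in bulk tissue fewer cells of a type and less RNA per cell cannot be told apart.

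The wider pathway was read from 76 further genes in 7 lists, of which 74 could be tested. In tumors 12 of them were called lower and 1 higher, beside 10.4% of all genes called in either direction. At an unadjusted p below 0.05 stood 25 of the 74, near the share of 29.6% over all genes. The median log2 fold change over the 74 was -0.28, against -0.02 over all genes. By role, 1 of 7 other subunits and inhibitors was called lower, 3 of 18 kinases and adaptors, 2 of 11 ubiquitin regulators, 1 of 7 receptors, 1 of 8 ligands, 3 of 19 other targets and 1 of 4 partners of necroptosis.

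Saa3, an acute phase protein gene induced through NF-kB, had 0.929 CPM in gland 1, 74.1 CPM in gland 2 and at most 0.880 CPM in a tumor, with a log2 fold change of -8.32 (SE 1.09, edgeR adjusted p = 0.00228). Without gland 2 this was -2.91 (adjusted p = 0.282). Ccl5, a chemokine gene of T cells and macrophages, had 17.8 and 2.11 CPM in the glands and 0.265 to 1.49 CPM in tumors (log2 fold change -3.54, SE 0.63, adjusted p = 0.00779), or -1.26 (adjusted p = 0.263) without gland 1. Ltb, the lymphotoxin beta gene of lymphocytes, had 16.8 CPM in gland 1 and 0.785 CPM in gland 2, which lay among the tumors at 0.326 to 1.63 CPM. Its log2 fold change of -3.47 (SE 0.62, adjusted p = 0.00844) turned to 0.06 without gland 1. The single gene called higher, named after its values were seen, was Ier3, a stress-induced target, with 52.8 and 22.8 CPM in the glands, and 61.4 to 216 CPM in tumors. Its log2 fold change was 1.66 (SE 0.43) at an adjusted p of 0.0360.

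Between the primary untreated tumors and the glands, neither of which saw a drug, 9 of the 10 genes were lower, on the same 2 gland libraries as above. The 3 primary untreated tumors were called lower for Birc3, with a log2 fold change of -1.43 (SE 0.25, edgeR adjusted p = 0.0369), and for Nfkbia, with -1.34 (SE 0.24, adjusted p = 0.0369). Called were thus 2 of the 10 genes, beside 2.11% of all genes, and 6 of the 10 had an unadjusted p below 0.05, beside 24.5%. Icam1 had 3.62, 2.51 and 3.31 CPM in these tumors, and its log2 fold change of -2.51 (SE 0.58) had an adjusted p of 0.0552. For Ripk3 it was -2.20 (SE 0.64, adjusted p = 0.0845). The count was fragile. A fit on these 5 libraries alone called 0 of the 10 genes, DESeq2 called 5, and the other counts are given in the closing section.

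Of the 74 pathway genes, 2 were called in that contrast, both lower. They were Saa3, at 0.0398, 0 and 0.0802 CPM in the primary untreated tumors (log2 fold change -9.77, SE 1.92, adjusted p = 0.0413), and Myd88, the adaptor of interleukin-1 and Toll-like receptors. Myd88 had 28.7 and 39.9 CPM in the glands and 22.1, 17.6 and 16.3 CPM in the tumors. The groups did not overlap, which with the glands on top held for 20.4% of all genes and for 6 of the 10 NF-kB genes, and the log2 difference was -0.88 (SE 0.20) at an adjusted p of 0.0496. Without gland 2, the log2 difference was -4.36 for Saa3 and -0.53 for Myd88. Of 21 alternative analyses, the call was lost in 15 for Saa3 and in 16 for Myd88.

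Stavudine in primary tumors left no called difference in these genes. The contrast asks whether the reverse transcriptase inhibitor by itself shifts NF-kB transcripts in tumors that never saw 17-DMAG. In edgeR 0 of the 10 genes were called (0% of 16870 genes), and 0 of the 10 had an unadjusted p below 0.05 (3.76% of all genes). DESeq2 and limma voom also called 0 of the 10, and over all genes 17 and 0. The smallest p belonged to Tnip1, with 16.1, 19.7 and 18.0 CPM without and 17.7, 12.8 and 17.6 CPM with stavudine. Its groups overlapped, and its log2 fold change was -0.17 (SE 0.19, 95% interval -0.60 to 0.25, edgeR adjusted p = 1.00). The widest interval was that of Ripk3, from -1.74 to 0.87, and the narrowest that of Nfkb1, from -0.25 to 0.35.

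None of the 73 pathway genes tested among tumors was called for stavudine by edgeR, and 0 had an unadjusted p below 0.05. The smallest p-values were those of Tab1, a partner of the kinase TAK1, Sod2, the mitochondrial superoxide dismutase, and Tnfrsf1a, the main TNF receptor, with log2 fold changes of -0.26, -0.27 and -0.29 and an adjusted p of 1.00 each. Tab1 had 24.3, 31.6 and 28.1 CPM without and 24.2, 23.2 and 23.3 CPM with stavudine. Sod2 had 138, 125 and 145 CPM against 120, 117 and 105 CPM. Both genes had all stavudine tumors below all others, as did 5.83% of all genes and 1 of the 10 NF-kB genes, Nfkb2, at 25.3, 30.9 and 26.4 CPM without and 23.4, 23.7 and 24.3 CPM with stavudine.

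Icam1 stood higher in every recurrent than in every primary tumor, but edgeR did not call the difference. The contrast over both water arms (5 recurrent against 6 primary tumors) asks whether NF-kB transcripts differ in tumors that regrew under continued HSP90 inhibition. All 10 genes had a log2 fold change above 0, but in edgeR 0 of the 10 were called, as were 0% of all genes. At an unadjusted p below 0.05 stood 4 of the 10, Icam1, Birc3, Relb and Nfkb1, against 13.6% of all 16870 genes. DESeq2 called 1 of the 10, Icam1 (adjusted p = 0.0370), and limma voom 0, with 419 and 0 calls over all genes.

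For Icam1, the primary tumors had 3.62, 2.51 and 3.31 CPM (untreated) and 3.98, 1.83 and 2.36 CPM (STV). The recurrent tumors had 14.2, 4.31 and 4.85 CPM (DMAG) and 6.65 and 5.67 CPM (DMAG+STV). All 5 recurrent tumors were thus above all 6 primary ones, which of the 10 genes was so for Icam1 alone and over all genes for 0.652%. The log2 fold change was 1.24 (SE 0.36, 95% interval 0.44 to 2.03), 2.35-fold higher, with an edgeR adjusted p of 0.289. Without recurrent DMAG replicate 1 it was 0.86 (SE 0.24, adjusted p = 0.328).

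Birc3 had 13.9 to 18.6 CPM in primary and 17.2 to 28.8 CPM in recurrent tumors, where recurrent DMAG replicate 3 lay among the primary tumors. Its log2 fold change was 0.46 (SE 0.16, edgeR adjusted p = 0.313), and 0.35 (SE 0.12) without recurrent DMAG replicate 1. Relb, the subunit of the non-canonical branch, had 7.13, 8.54 and 7.00 CPM in primary untreated, 6.42, 5.31 and 8.06 in primary STV, 20.6, 10.6 and 7.43 in recurrent DMAG and 11.3 and 9.99 in recurrent DMAG+STV tumors. The groups overlapped through recurrent DMAG replicate 3, and the log2 fold change was 0.72 (SE 0.25, adjusted p = 0.314), or 0.47 (SE 0.16) without recurrent DMAG replicate 1. Nfkb1 differed by 0.23 (SE 0.10, adjusted p = 0.361).

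The other 6 genes gave no unadjusted p below 0.05 for recurrence. Nfkbia was near 0 on the log2 scale, at 0.01 with a 95% interval from -0.36 to 0.37, and Rela at 0.10 (-0.17 to 0.37). Nfkb2 (0.34), Tnip1 (0.29) and Tnfaip3 (0.23) lay above 0 with intervals that included it. The interval for Ripk3 was the widest, from -0.40 to 1.54.

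**Figure D3:**
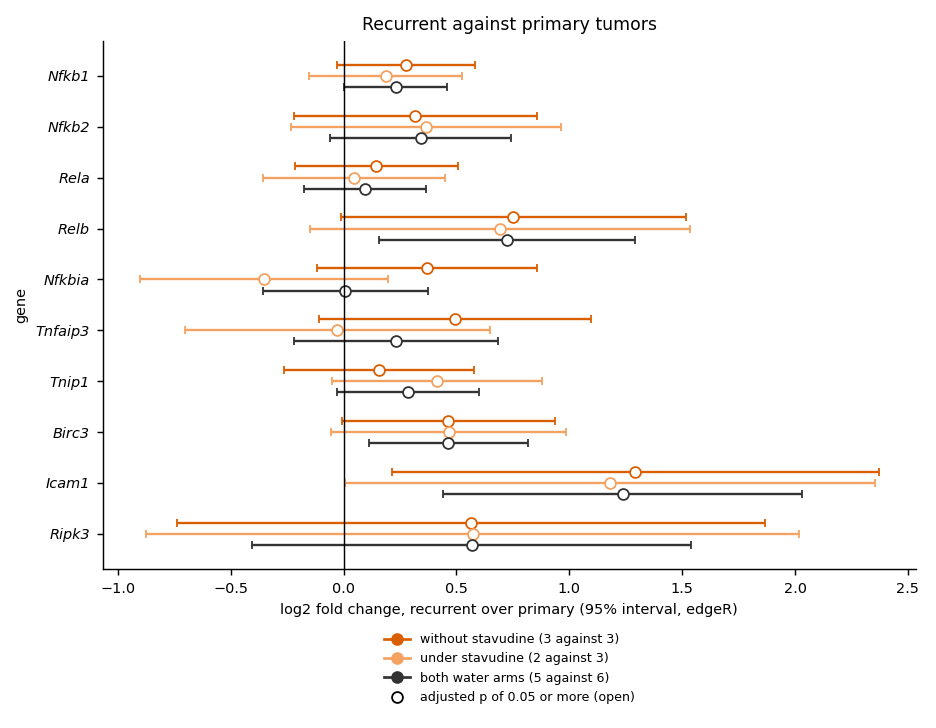
Log2 fold change of recurrent over primary tumors (horizontal axis) for each gene, with 95% intervals from edgeR, without stavudine, under stavudine and over both water arms; open points have an adjusted p of 0.05 or more, as every point shown does. Icam1 lies farthest to the right in each comparison, at 1.29, 1.18 and 1.24, and Nfkbia lies on opposite sides of 0 in the 2 arms, at 0.37 and -0.35.

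Within the water arms, which share no library, the values were as follows. Without stavudine, 0 of the 10 genes were called by edgeR (0% of all genes), and 1 of the 10, Icam1, had an unadjusted p below 0.05 (9.69% of all genes), its log2 difference being 1.29 (SE 0.48) with an adjusted p of 0.509. When recurrent DMAG replicate 1 was left out, this was 0.55 (SE 0.34, adjusted p = 0.729), and that of Ripk3 went from 0.57 to -0.33. Under stavudine, 0 of the 10 were called (0% of all genes), and 1 of the 10, again Icam1, had an unadjusted p below 0.05 (10.1% of all genes), with 1.18 (SE 0.52, adjusted p = 0.494) on 2 recurrent tumors. Of these, recurrent DMAG+STV replicate 2 also stood apart in its markers, and with either of the 2 left out Icam1 was at 1.05 (SE 0.68) or 1.28 (SE 0.67), neither with an unadjusted p below 0.05. DESeq2 and limma voom called 0 of the 10 in either arm.

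Pathway genes outside the 10 were not called for recurrence by edgeR either. Over both arms 0 of 73 were called, 15 had an unadjusted p below 0.05 upward and 4 downward, and their median log2 fold change was 0.17, against 0.00 over all genes. Over all genes 13.6% reached that level. Of the 18 other targets, 9 reached it upward and 2 downward. The smallest p-values were those of Cxcl1, a neutrophil chemokine gene (log2 fold change 1.04, SE 0.24), Bcl3, an IkB family protein that acts with the Nfkb1 and Nfkb2 products in the nucleus (1.50, SE 0.35), and Tnfrsf1b, the second TNF receptor (1.52, SE 0.38), with an edgeR adjusted p of 0.287 each. Each of these genes was called in 1 of 18 alternative analyses. Bcl3 had 4.47 to 16.1 CPM in primary and 12.4 to 41.1 CPM in recurrent tumors, overlapping through primary untreated replicate 2. Tnfrsf1b had 6.05 to 17.3 CPM against 18.7 to 57.7 CPM, and Cxcl1 1.00 to 1.77 CPM against 1.97 to 3.91 CPM, both without overlap, as for 0.652% of all genes.

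In the arm without stavudine, 0 of 73 pathway genes were called by edgeR and 17 had an unadjusted p below 0.05 (9.69% of all genes), led by Tnfrsf12a, the receptor of TWEAK (log2 fold change 1.51, SE 0.47), Myd88 (0.47, SE 0.15) and Nfkbie, the gene of IkB-epsilon (1.35, SE 0.45), with an adjusted p of 0.509 each. Under stavudine 0 of 73 were called and 6 had such a p (10.1% of all genes), led by Lcn2, an iron-binding protein of inflamed epithelium (1.58, SE 0.40, adjusted p = 0.313), Bcl3 (1.83, SE 0.52) and Cxcl1 (1.25, SE 0.36), the last pair at an adjusted p of 0.336. Lcn2 had 1288, 2029 and 1857 CPM in the primary STV tumors and 5458 and 4796 CPM in the recurrent DMAG+STV tumors. DESeq2 called these 3 genes under stavudine.

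Stromal and leukocyte markers were also uneven between recurrent and primary tumors. Macrophage markers summed to 158 to 209 CPM in primary and 168 to 576 CPM in recurrent tumors, and fibroblast markers to 239 to 891 against 331 to 5641 CPM, with overlap in both lists. Neutrophil markers summed to 2.39 to 3.57 against 3.13 to 14.1 CPM, basal epithelial markers to 14.1 to 37.3 against 31.8 to 254 CPM, and endothelial markers to 71.4 to 138 against 66.1 to 283 CPM, all overlapping. The median log2 fold changes were 0.71 for macrophages, 1.64 for fibroblasts, 2.45 for neutrophils (2 of 5 genes testable) and 1.22 for basal epithelium. They were 0.42 for endothelium, 0.64 for pan-leukocyte markers, 0.33 for dendritic cells, 0.58 for B cells (2 of 5 genes testable) and 0.82 for milk proteins. T cells lay at -0.08, adipocytes at 0.06 and luminal epithelium at 0.20. Skeletal muscle was at 1.36, with -1.05 without stavudine and 3.83 under it. In all 13 lists edgeR called 0 genes. No macrophage marker was at 0 in any library. The part of these cells in the level of Icam1 was not tested.

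Among recurrent tumors, those under stavudine had less RNA of the feedback genes Nfkbia and Tnfaip3 on average, without passing the test. The comparison of the 2 recurrent DMAG+STV with the 3 recurrent DMAG tumors asks whether stavudine shifts the NF-kB transcripts of recurrences. In edgeR 0 of the 10 genes were called (0% of all genes), and 2 of the 10 had an unadjusted p below 0.05 (7.84% of all genes). Nfkbia had 47.8, 39.3 and 29.6 CPM without stavudine and 29.9 and 21.0 CPM with it, which overlapped. Its log2 fold change was -0.60 (SE 0.25, edgeR adjusted p = 0.609). Tnfaip3 had 18.9, 11.9 and 8.77 CPM without and 8.02 and 7.64 CPM with stavudine, with no overlap, and its log2 fold change was -0.75 (SE 0.31, adjusted p = 0.609). Of the 10 genes, Tnfaip3 was the 1 with all 3 recurrent DMAG tumors above both recurrent DMAG+STV tumors, beside 10.5% of all genes. DESeq2 and limma voom called 0 of the 10.

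Both values leaned on single libraries. Without recurrent DMAG replicate 1, Nfkbia was at -0.43 (SE 0.24) and Tnfaip3 at -0.40 (SE 0.22), and without recurrent DMAG+STV replicate 2 Nfkbia was at -0.38 (SE 0.30). Markers moved in this comparison too, with 0 genes called by edgeR in any list. The median log2 fold changes were 2.51 for skeletal muscle, 1.31 for adipocytes, 0.94 for neutrophils, -0.76 for dendritic cells, -0.71 for fibroblasts and -0.51 for luminal epithelium. The lowest Nfkbia level, 21.0 CPM, was that of recurrent DMAG+STV replicate 2, the tumor with the most muscle and the fewest luminal markers, and the part of these markers in it was not tested. The other 8 NF-kB genes had intervals that included 0, from Birc3 at 0.02 to Ripk3 at -0.43. Of the pathway genes, 0 of 73 were called by edgeR and 6 had an unadjusted p below 0.05 (7.84% of all genes), all lower under stavudine. The smallest were Mlkl, the pore-forming effector downstream of Ripk3 (log2 fold change -1.03, SE 0.36, adjusted p = 0.525), Tnfrsf12a (-1.39, SE 0.54, adjusted p = 0.570) and Traf5, a TNF receptor adaptor (-0.65, SE 0.26, adjusted p = 0.609). Mlkl had 26.7, 19.4 and 25.2 CPM without and 16.0 and 7.32 CPM with stavudine.

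Whether the recurrence difference itself changed with stavudine was tested by an interaction term. It was called for 0 of the 10 genes in edgeR (0% of all genes), and 0 of the 10 had an unadjusted p below 0.05 (7.84% of all genes), with 0 calls among the 10 in DESeq2 and limma voom as well. Nfkbia came nearest, since recurrent tumors were higher than primary by 0.37 (SE 0.22) without stavudine and at -0.35 (SE 0.24) under it. The difference between these was -0.72 on the log2 scale (SE 0.33, 95% interval -1.46 to 0.01, edgeR adjusted p = 0.637). For Icam1 it was -0.11, with an interval from -1.71 to 1.49, so that the sign of a difference between the arms could not be told from these samples. Among pathway genes 0 of 73 were called and 6 had an unadjusted p below 0.05, with the smallest for Tnfrsf12a (-2.08, SE 0.70, adjusted p = 0.537), Mlkl (-1.40, SE 0.48, adjusted p = 0.538) and Tnf, the cytokine gene (-2.79, SE 1.00, adjusted p = 0.575).

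Much of the spread among tumors came together in a few libraries. Recurrent DMAG replicate 1 was the highest of the 11 tumors for 9 of the 10 genes, all but Rela, where 24.6% of all genes had their highest tumor level in it. Its lead over the next tumor was 2.13 times for Icam1, 2.01 times for Ripk3 and 1.82 times for Relb, but 1.08 times for Nfkb1. For Nfkb1 it also exceeded both glands, the single one of the 10 genes to do so. Primary STV replicate 2 was the lowest tumor for 6 of the 10, Rela, Relb, Tnfaip3, Tnip1, Icam1 and Ripk3, a count for which no share over all genes was computed. Averaged over the 10 genes as centred log2 CPM, these tumors stood at 0.83 and -0.50, and the other 9 lay between -0.16 and 0.17.

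**Figure D4:**
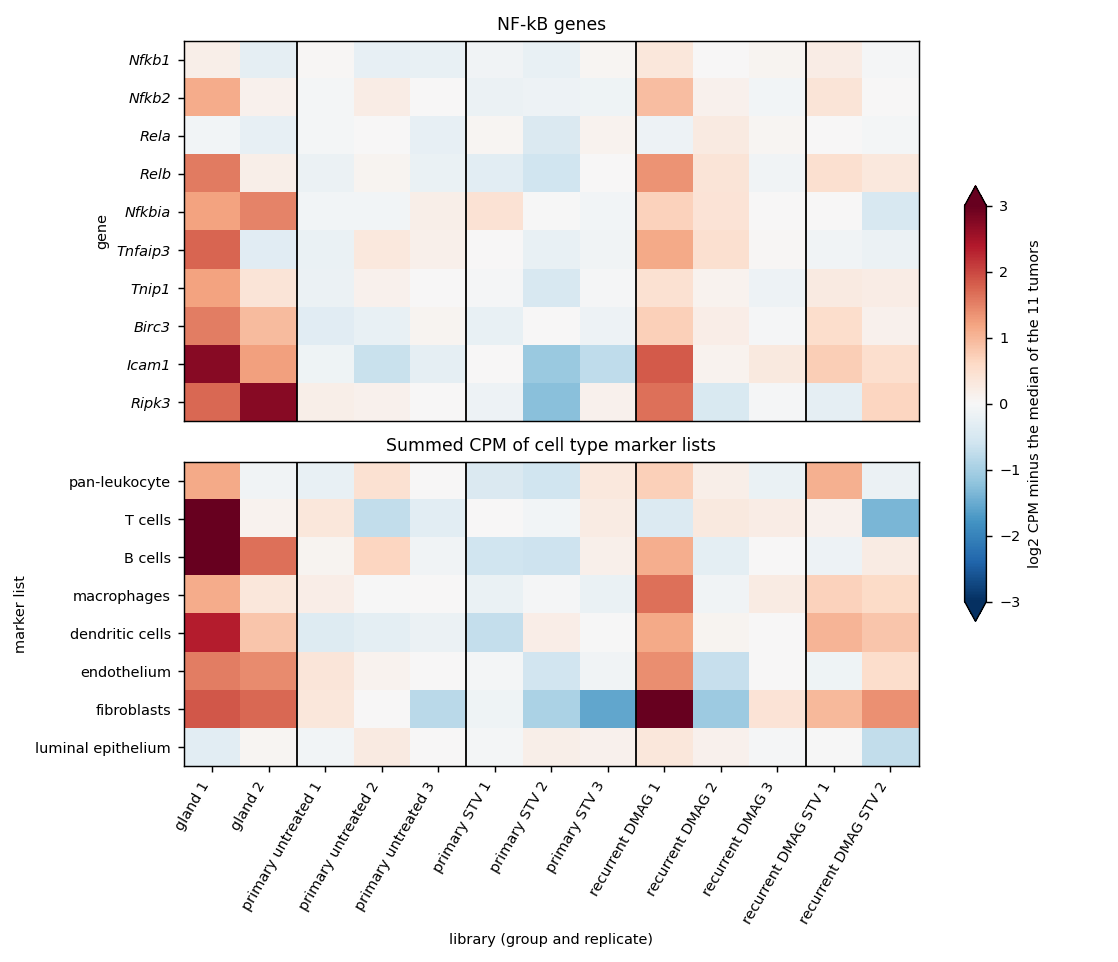
Log2 CPM minus the median of the 11 tumors (color, red above and blue below) for the 10 genes (top) and for the summed CPM of 8 cell type marker lists (bottom) in the 13 libraries (horizontal axis). Both glands lie above the tumor median for most of the 10 genes. The tumors with the most genes above it are recurrent DMAG replicates 1 (9 of 10) and 2 (8) and recurrent DMAG+STV replicate 1 (7). Gland 1 has T cell markers at 98.8 CPM, and recurrent DMAG replicate 1 has fibroblast markers at 5641 and macrophage markers at 576 CPM.

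Over the 11 tumors, the genes whose log2 CPM was most like that mean, out of 12683 whose mean log2 CPM reached 1, were Kctd5 (Pearson r 0.990), Plekha3 (0.979), Rara (0.962), Mex3a (0.960) and Rap2b (0.958). Each was highest in recurrent DMAG replicate 1, Kctd5 with 29.7 CPM against 13.9 CPM in its lowest tumor and Mex3a with 132 against 21.7 CPM. Without that library r was 0.970, 0.947, 0.878, 0.894 and 0.843 over the other 10 tumors. The points share library depth and tissue mixture, and the values are a description across genes chosen for their likeness.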

How the data were processed

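RNA was sequenced from 13 libraries, 2 glands and 11 tumors. Per the study's methods and the labels, the authors demultiplexed with bcl2fastq 2.20, aligned with STAR to mm10 and counted reads per gene with featureCounts (Subread 1.6.2). The deposited values are raw counts, and the strand setting of the counting was not given in the sources used here. Counts were tested in R 4.3.3 with edgeR 4.0.16 (TMM scaling, filterByExpr, robust quasi-likelihood test, two-sided, Benjamini-Hochberg adjustment over all genes tested). Contrasts with glands were fitted on all 13 libraries (17135 genes), the others on the 11 tumors (16870 genes). Intervals are 95%. Alternatives were DESeq2 1.42.0, limma voom 3.58.1, DESeq2 size factors, no filter, the groups compared alone, a replicate block, each library left out, omission of milk, muscle and adipocyte genes and, added after the data were seen, library totals without TMM.

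All 10 genes are named with their levels. Folds are given per contrast for up to 4 of them with an unadjusted p below 0.05, or else the smallest, and for up to 3 pathway genes, with exceptions stated. The genes, pathway lists and marker lists were chosen with earlier results of these data known. Log2 CPM used a prior count of 2 for likeness.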

Additional observations from a re-analysis of the deposited data

Results flagged for a closer look

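For Tnip1, the 3 primary STV tumors (17.7, 12.8 and 17.6 CPM) were all below the mean of the primary untreated tumors, whereas both recurrent DMAG+STV tumors (21.6 and 21.0 CPM) were above the mean of the recurrent DMAG tumors. The stavudine difference was -0.17 on the log2 scale in primary and 0.08 in recurrent tumors. The interaction was 0.26 (SE 0.28, edgeR adjusted p = 0.863), so that the difference between the stages did not pass its test.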

How the results depend on the processing

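Calls against the glands depended on the processing. For all tumors against glands (5 of the 10 genes called), the replicate block gave 3 and library totals without TMM 0, and leaving out a library gave 3 (without gland 1) to 6 (without recurrent DMAG replicate 1). For primary untreated tumors against glands (2 called), DESeq2 gave 5, and the groups compared alone, the replicate block and library totals without TMM gave 0 each. Leaving out a library gave 0 to 4 there, with 0 when any of the primary untreated or primary STV libraries was dropped. Dropping recurrent DMAG replicate 2 also gave 0, replicate 3 gave 1 and replicate 1 gave 4. For recurrence over both arms (0 called), DESeq2 gave 1. Ltb in tumors against glands ranged from -4.31 to 0.0588 over libraries left out. Over all genes, the calls against glands were 1785 and 361 for the 2 contrasts, 3242 and 2352 with DESeq2, 371 and 4 with the block, and 489 and 19 without TMM, where 1.64% of the calls of the first were higher against 15.4% with TMM. They were 4255 and 3381 without gland 1, and 535 and 257 without gland 2. Among tumors, DESeq2 called 17 to 419 genes by contrast where edgeR called 0. Same-numbered tumors shared only a number (15 pairs, r -0.30 to 0.22, 3 above 0.1), and the block changed no other count of called members. Of the further 787 values recomputed, 706 kept their direction and side of the threshold, 67 were weaker, 13 stronger and 1, that of Ltb without gland 1, reversed; the cause was not tested. With 2 glands and 2 to 3 tumors per group, many intervals were wide. Where an interval included 0, the sign of the difference could not be told, and differences up to its ends remained possible.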
